A study of Mus musculus with 8 samples.

Results

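The genes described here build and divide the mitochondrial network: Opa1, its proteases Oma1 and Yme1l1, the outer membrane fusion genes Mfn1 and Mfn2, the fission GTPase gene Dnm1l, its receptor and adaptor genes Mff, Fis1 and Mief1, and Slc25a46. Their members in the data were the regions of the ATAC-seq count table that overlapped the span of 1 of these 10 genes or lay within 10 kb of it on GRCm38. The rule found 24 of the 59906 regions, from 1 at Opa1, Mfn1 and Slc25a46 to 6 at Fis1. All 24 passed the filter on low counts. The libraries came from conventional type 1 dendritic cells (cDC1), which present captured antigen to CD8 T cells, sorted from mouse spleen, with 4 OPA1-deficient (OPA1KO) and 4 WT libraries. The OPA1-deficient cells carried a floxed Opa1 allele and the CD11c-Cre recombinase, which is active in cells that express CD11c and so in other dendritic cells as well as in cDC1. The labels give neither the age of the mice, nor the deleted part of Opa1, nor whether the WT mice carried Cre or a floxed allele, and they do not tie libraries to animals. The replicates may thus be technical ones, and the p-values reflect how far libraries of a group differ. In ATAC-seq a transposase cuts and tags accessible DNA, so the count of a region measures how open its chromatin was, and not how much RNA or protein the gene made. In such bulk libraries, fewer cells with an open region and less opening in each cell cannot be told apart.

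Mitochondria fuse and divide continually. MFN1 and MFN2 are GTPases that join outer membranes, and OPA1 is the GTPase that then joins inner membranes and holds the cristae in shape. OPA1 is cut by OMA1, a protease activated by stress and loss of membrane potential, and by YME1L, and the balance of long and short OPA1 sets its fusion activity. DRP1, the product of Dnm1l, is a cytosolic GTPase that is recruited by MFF, FIS1 or MIEF1 (also called MiD51) and constricts the organelle. SLC25A46 is an outer membrane protein of the mitochondrial carrier family that affects fusion and cristae.

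Counts in regions totalled 4660826 to 7590578 per library. No pair of libraries within a group held duplicate counts, since the chi-square of counts over regions was 2.16 to 4.74 per degree of freedom in the 12 such pairs. Pairs across groups were not compared in this way, and these values do not exclude technical replicates. Regions at genes that mark cDC1 were present for 15 of 16 listed genes (all but Itgae) and summed to 431.8 to 454.9 CPM in OPA1-deficient libraries and 425.1 to 463.3 CPM in WT libraries. Regions were also present for 13 of 14 listed monocyte and macrophage genes, with sums of 186.4 to 248.3 CPM in OPA1-deficient libraries and 203.4 to 268.0 CPM in WT libraries. For other cells, 4 of 7 neutrophil genes had one (none at Ly6g, Mpo or Elane), as did 4 of 7 matched T cell genes (none at Cd3e, Cd3g or Bcl11b). WT sums were 87.9 to 113.8 CPM for T cell and 44.1 to 84.6 CPM for neutrophil genes. They were 84.3 to 98.9 CPM for type 2 (cDC2) and 82.1 to 87.4 CPM for plasmacytoid (pDC) dendritic cell genes. B, NK and red cell genes summed to 46.6 CPM or less. The lists differ in length. The median over genes with a region was 18.1 CPM for cDC1, 27.3 for pDC, 18.6 for T cell and 13.0 for neutrophil genes, and 8.73 or less in the other lists. Regions of the marker genes were not called changed in any of the 9 lists, and what other cells contributed to the values here was not tested. CPM is the count of a region per 1000000 counts of its library, scaled with TMM factors of 0.947 to 1.03. A region is called changed where edgeR's quasi-likelihood test gives a Benjamini-Hochberg adjusted p under 0.05 over all 59247 tested regions.

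None of the 24 regions was called changed, where 0.0203% of all tested regions were. By edgeR 1 of the 24 had an unadjusted p under 0.05, against 6.38% of all regions, and DESeq2 and limma-voom also called 0 of them (with 1 and 2 at an unadjusted p under 0.05, and 1 adjusted p not given by DESeq2). The OPA1-deficient and WT libraries overlapped at each of the 24, where the groups stood apart at 3.95% of all regions. The smallest edgeR adjusted p was 0.743. The median log2 fold change, OPA1-deficient minus WT, was -0.03 over the 24 regions and -0.00 over all tested regions.

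Each gene was represented by its strongest region within 1 kb of an end of its span or over a RefSeq start, and 9 of the 10 genes had one. The exception was Mief1. The sequences upstream of 4 starts are shown because they carry the contrasts that follow, and were picked with the values known. They belong to Opa1 (the deleted gene), Yme1l1 (the strongest region), Mff (the region with the smallest p) and Mief1 (no region in the table at its start). Each is the 250 bases before a RefSeq start on GRCm38.p6, written 5′ to 3′ on the strand of the gene. The annotated span of each of the 4 begins upstream of that start, so that the end of the sequence, or at Yme1l1 all of it, lies within the span. Capitals mark matches on either strand to GGGCGG (the SP/KLF motif), CCGGAAG (the ETS motif), GCATGCGC (the NRF1 motif) or CCAAT (the CCAAT box). A match is a description of the letters and not evidence of binding.
Opa1, chr16:29579084-29579333, plus strand: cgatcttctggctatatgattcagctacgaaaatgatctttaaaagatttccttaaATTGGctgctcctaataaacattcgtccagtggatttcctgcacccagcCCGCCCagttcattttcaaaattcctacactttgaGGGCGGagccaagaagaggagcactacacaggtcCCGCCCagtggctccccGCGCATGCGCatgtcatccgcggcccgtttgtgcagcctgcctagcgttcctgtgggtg
Yme1l1, chr2:23156255-23156504, plus strand: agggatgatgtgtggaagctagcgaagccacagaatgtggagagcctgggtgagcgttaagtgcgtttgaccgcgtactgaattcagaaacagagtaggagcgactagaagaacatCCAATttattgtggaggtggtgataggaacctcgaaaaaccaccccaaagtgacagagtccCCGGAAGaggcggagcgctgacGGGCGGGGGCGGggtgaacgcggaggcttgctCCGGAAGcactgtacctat
Mff, chr1:82724668-82724917, plus strand: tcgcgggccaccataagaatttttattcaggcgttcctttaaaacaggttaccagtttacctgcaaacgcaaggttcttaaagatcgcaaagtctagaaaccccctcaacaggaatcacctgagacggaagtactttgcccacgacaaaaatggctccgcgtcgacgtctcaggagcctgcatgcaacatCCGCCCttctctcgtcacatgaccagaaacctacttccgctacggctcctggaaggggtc
Mief1, chr15:80233830-80234079, plus strand: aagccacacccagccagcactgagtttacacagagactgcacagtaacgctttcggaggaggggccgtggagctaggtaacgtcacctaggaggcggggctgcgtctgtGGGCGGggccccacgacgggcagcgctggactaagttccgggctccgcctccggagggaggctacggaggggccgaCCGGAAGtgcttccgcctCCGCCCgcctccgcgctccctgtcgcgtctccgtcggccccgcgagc

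The Opa1 sequence held 3 SP/KLF matches, 1 CCAAT match and 1 palindromic stretch, GCGCATGCGC, that matched the NRF1 letters on each strand. These overlapping matches, 1 per strand, begin 59 and 57 bases before the start. NRF1 is a transcription factor of nuclear genes for mitochondrial proteins. For each of the 9 genes with a listed start, 1 start sequence is described. Like that of Yme1l1, the sequences of Oma1 and Dnm1l lie wholly within the gene span, so their matches are downstream of its upstream end. Mfn2 had 3 listed starts and Dnm1l, Mff and Fis1 2 each, and their other start sequences are not described here. Of the 9 sequences described, only that of Opa1 held the NRF1 letters, which 2.26% of all 32851 start sequences held. SP/KLF matches occurred in 8 of the 9 sequences, all but that of Mfn2, and in 32.7% of all start sequences. ETS matches occurred in the sequences of Yme1l1, Mfn1, Fis1 and Mief1 and in 6.91% of all. CCAAT matches occurred in those of Opa1, Yme1l1, Mfn1 and Fis1 and in 33.8% of all. The letters of YY1 (AAGATGGC), CRE (TGACGTCA) and the E-box (CACGTG) were in none of the 9, and in 1.56%, 1.55% and 6.02% of all start sequences. G and C made up 50.8% of the Mff sequence, 52.0% of Opa1, 55.2% of Yme1l1 and 69.6% of Mief1, with a median of 52.4% over all start sequences. A C followed by a G (CpG) occurred from 10 times (Mfn1) to 27 times (Mief1) in the 9 sequences, against a median of 6 over all. The shares of matches over all start sequences were not matched for CpG, and whether it bears on the motif counts was not tested.

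**Figure D1:**
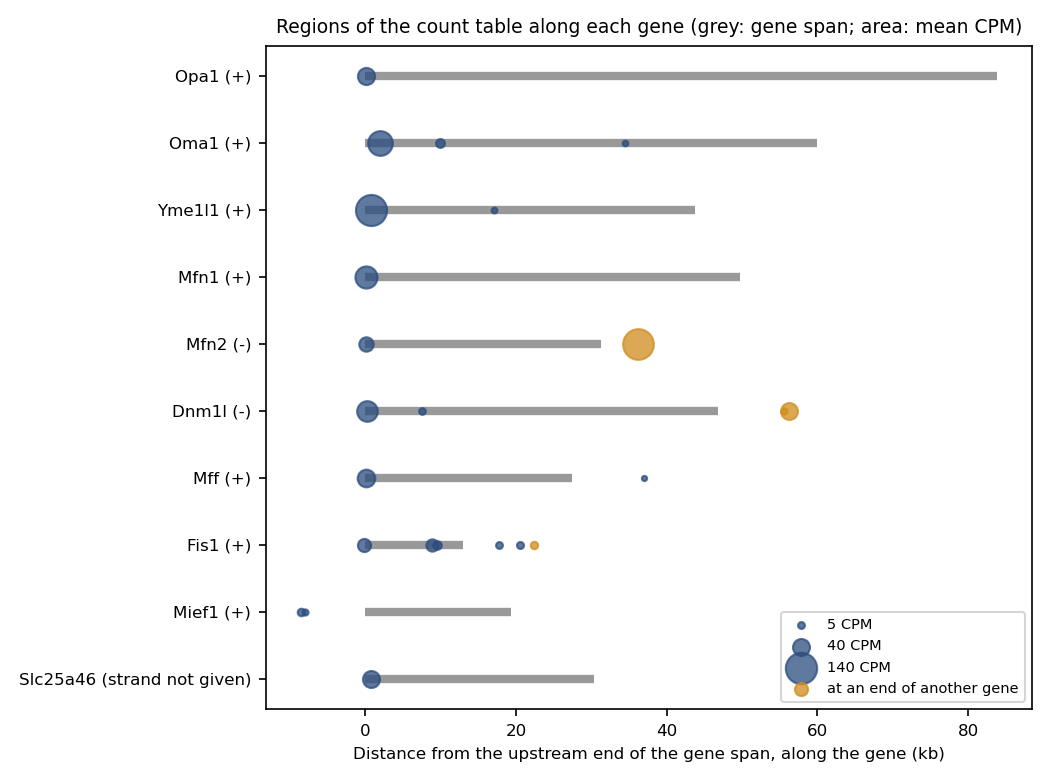
Position of each region of the count table along its gene, in kb from the upstream end of the gene span (for Slc25a46, whose strand was not listed, from the end that holds its region), with grey bars for the span and the area of each point for the mean CPM over all libraries. Opa1, Mfn1 and Slc25a46 had a single region, and the strongest point beside Mfn2 lay at the end of other genes.

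At Opa1 itself the whole gene and its flanks held a single region, over the start at 29579132 to 29579622 on chromosome 16, and the gene span runs for 83.8 kb. It covered 202 of the 250 bases printed above, including all of the marked matches. Its level was 34.6, 41.3, 37.9 and 43.0 CPM in OPA1-deficient replicates 1 to 4, and 47.0, 40.7, 42.8 and 37.8 CPM in WT replicates 1 to 4. The groups overlapped widely: the lowest library was OPA1-deficient and the highest WT, with 3 of 4 OPA1-deficient libraries above WT replicate 4. The means were 39.2 ± 3.73 CPM and 42.1 ± 3.85 CPM (OPA1-deficient and WT, SD, n = 4 each), a log2 fold change of -0.11 ± 0.12 (standard error, edgeR adjusted p = 0.925). The 95% interval, from -0.34 to 0.13, corresponds to 0.790 to 1.09 times the WT level. As each library was left out in turn, the log2 fold change ranged from -0.150 (without WT replicate 4) to -0.041 (without WT replicate 1). The next regions of the table were 667.3 kb upstream and 149.6 kb downstream of the upstream end of the gene, so no region of the table lay over the rest of the gene and this value does not check its deletion.

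The start or end regions of 3 other genes were closest to the Opa1 region over the 8 libraries, by the root mean square difference of log2 CPM. They were those of Jup, at 0.07, of Caprin2, at 0.08, and of Zfp169, also at 0.08, where the median of 11227 regions was 1.09. Jup encodes the junction protein plakoglobin. The Jup region was at 35.7, 41.3, 39.7 and 40.5 CPM in OPA1-deficient libraries, against 46.5, 40.5, 46.4 and 40.9 CPM in WT libraries. The measure takes in the level as well as its variation, and is given without a test.

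The proteases that cut OPA1 had the strongest start regions per length among these genes. At Yme1l1, which encodes an inner membrane AAA protease, the start region on chromosome 2 (23155774 to 23156645) also lay within 1 kb of an end of Mastl, a mitotic kinase gene, so its counts cannot be split between them. Its level was 130.0, 145.7, 139.0 and 130.7 CPM in OPA1-deficient libraries, against 135.0, 149.0, 137.5 and 135.9 CPM in WT libraries. The groups spanned nearly the same range, and their means were 136.4 ± 7.47 and 139.4 ± 6.49 CPM (OPA1-deficient and WT, n = 4 each). The log2 fold change was -0.03 ± 0.08, with a 95% interval from -0.19 to 0.13 (edgeR adjusted p = 0.975). A second, weak region 16.0 kb inside the gene held 2.77 ± 0.566 CPM in OPA1-deficient and 3.45 ± 0.280 CPM in WT libraries (-0.31 ± 0.33, edgeR adjusted p = 0.923).

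At Oma1, the gene of the stress-activated protease, the strong region (103313524 to 103314192 on chromosome 4) lay over the listed RefSeq start, 1649 bp inside the span. A long non-coding RNA gene, Gm36523, ends within 1 kb of it. Its level was 91.5, 84.3, 92.6 and 81.3 CPM in OPA1-deficient libraries, against 86.2, 81.2, 83.7 and 90.2 CPM in WT libraries. The libraries of the groups interleaved, with a log2 fold change of 0.04 ± 0.09 and a 95% interval from -0.14 to 0.21 (edgeR adjusted p = 0.974). It ranged from 0.0066 (without OPA1-deficient replicate 3) to 0.072 (without OPA1-deficient replicate 4) as each library was left out. Regions further inside the gene were weaker. The one at 103321543 to 103322162 had 9.96, 7.61, 6.70 and 13.1 CPM in OPA1-deficient and 10.8, 8.88, 10.1 and 9.50 CPM in WT libraries, and was thus more scattered in the OPA1-deficient libraries (coefficient of variation 30.6%, against 8.35% in WT).

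Of the mitofusin genes, Mfn1 had the stronger region. The Mfn1 start region (chromosome 3, 32529202 to 32529844) was at 68.3, 67.3, 67.6 and 77.4 CPM in OPA1-deficient libraries, against 70.8, 66.8, 68.3 and 64.9 CPM in WT libraries. Only OPA1-deficient replicate 4 lay above the WT libraries, and the log2 fold change was 0.05 ± 0.09 (95% interval -0.14 to 0.24, edgeR adjusted p = 0.963). Without that library it was 0.0023, the lowest of the leave-one-out values.

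Mfn2, the mitofusin that also tethers mitochondria to the endoplasmic reticulum, had a start region (chromosome 4, 147904361 to 147905108) that covered all 3 of its listed starts. It was at 25.6, 26.1, 25.1 and 29.8 CPM in OPA1-deficient libraries, against 32.8, 20.6, 34.8 and 30.3 CPM in WT libraries. The OPA1-deficient libraries lay between WT replicate 2, the lowest of the 8, and the other WT libraries, and their coefficient of variation was 8.13%, against 21.3% in WT libraries. The log2 fold change was -0.15 ± 0.15 (95% interval -0.45 to 0.15, edgeR adjusted p = 0.917). As each library was left out it ranged from -0.293 (without WT replicate 2) to -0.060 (without WT replicate 3), and the adjusted p over 15 alternatives ranged from 0.540 to 1.000. Most of the counts within 10 kb of Mfn2 came from a region 4651 bp outside it, at the ends of Miip and Fv1, at 136.1 ± 6.17 CPM in OPA1-deficient and 132.0 ± 8.30 CPM in WT libraries, and the start region held 17.3% of the sum.

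**Figure D2:**
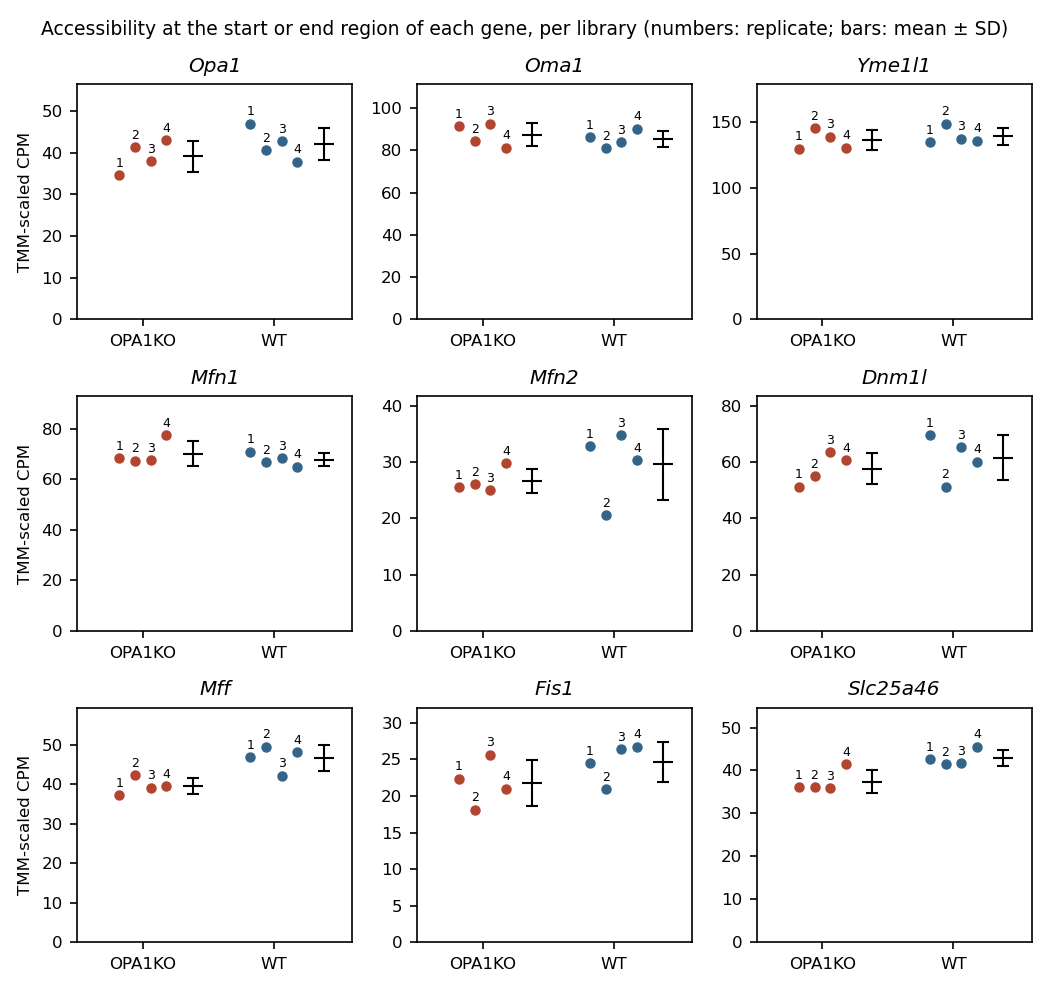
TMM-scaled CPM (vertical axes, from 0) at the start or end region of 9 genes, with 1 point per library numbered by replicate, OPA1KO left and WT right, and the mean ± SD beside each group (n = 4). The groups overlap in every panel. Mff and Slc25a46 have the least overlap, and WT replicate 2 is low at Mfn2 and Dnm1l.

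Among the fission genes, Dnm1l had a region over both of its listed starts (chromosome 16, 16358434 to 16359218). It was at 51.4, 55.1, 63.5 and 60.8 CPM in OPA1-deficient libraries, against 69.6, 51.3, 65.4 and 60.3 CPM in WT libraries. As at Mfn2, WT replicate 2 was the lowest library, and the log2 fold change was -0.09 ± 0.11 (95% interval -0.31 to 0.12, edgeR adjusted p = 0.930). It ranged from -0.174 without that library to -0.023 without WT replicate 1, and the adjusted p over 15 alternatives ranged from 0.668 to 1.000. Inside the gene, 7.07 kb from the nearest start, a region had 5.09 ± 1.00 CPM in OPA1-deficient and 3.91 ± 1.40 CPM in WT libraries (0.39 ± 0.30, edgeR adjusted p = 0.881). The other pair of regions within 10 kb of Dnm1l were at the end of Yars2, the mitochondrial tyrosyl-tRNA synthetase gene.

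Mff encodes the main outer membrane receptor of DRP1 in many cell types, and its start region had the smallest p of the 24. The region (chromosome 1, 82724689 to 82725268) was at 37.3, 42.4, 39.1 and 39.5 CPM in OPA1-deficient libraries, against 46.8, 49.6, 42.2 and 48.2 CPM in WT libraries. The groups overlapped through 1 library of each, since OPA1-deficient replicate 2 was just above WT replicate 3 and every other OPA1-deficient library was below all WT libraries. The means were 39.6 ± 2.13 and 46.7 ± 3.21 CPM (OPA1-deficient and WT, n = 4 each). The log2 fold change was -0.24 ± 0.11, or 0.846 times the WT level with a 95% interval from 0.725 to 0.986, at an edgeR unadjusted p of 0.0336. Over all regions the edgeR adjusted p was 0.743, so the difference did not pass the test. Over 15 alternatives the adjusted p ranged from 0.624 to 0.970. An end of a long non-coding RNA gene, C430014B12Rik, lay within 1 kb of the same region.

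Slc25a46 showed a similar arrangement at a single region near one end of its span (chromosome 18, 31609302 to 31610163). Its level was 36.1, 36.1, 35.9 and 41.5 CPM in OPA1-deficient libraries, against 42.6, 41.4, 41.8 and 45.5 CPM in WT libraries. Only OPA1-deficient replicate 4 reached the WT range. The log2 fold change was -0.20 ± 0.11 (95% interval -0.42 to 0.03), and edgeR's adjusted p of 0.825 was above the threshold. As each library was left out it ranged from -0.246 (without OPA1-deficient replicate 4) to -0.163 (without WT replicate 4). Without OPA1-deficient replicate 4 the edgeR unadjusted p was 0.0477 and the adjusted p 0.711.

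Fis1, the gene of a tail-anchored outer membrane protein, was the only one of these genes with a separate region over a second start. The region over the first start (chromosome 5, 136952946 to 136953358) was at 22.3, 18.1, 25.6 and 21.0 CPM in OPA1-deficient libraries, against 24.5, 20.9, 26.4 and 26.7 CPM in WT libraries. The region over the second (136961930 to 136962492) was at 20.8, 17.6, 17.97 and 23.4 CPM in OPA1-deficient libraries, against 22.5, 21.5, 15.2 and 21.9 CPM in WT libraries. The groups overlapped at each, with log2 fold changes of -0.17 ± 0.15 and -0.03 ± 0.16 (edgeR adjusted p = 0.902 and 0.991). The first ranged from -0.259 (without OPA1-deficient replicate 3) to -0.093 (without OPA1-deficient replicate 2) as each library was left out. Among the other regions near Fis1, the one 9310 bp outside the gene and at the end of the claudin gene Cldn15 was at 7.25 ± 1.42 CPM in OPA1-deficient and 5.11 ± 2.38 CPM in WT libraries (0.51 ± 0.28, edgeR adjusted p = 0.821).

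Mief1, which encodes an outer membrane adaptor of DRP1, was set apart by having no region in the table over its start or its span. The nearest regions were 7.842 kb upstream and 224.1 kb downstream of the upstream end of the gene. In all, 9207 of 21887 protein-coding genes (42.1%) had no region at an end or start, though such a gene may hold regions elsewhere in its span. The table gives no count outside its regions, so the level at the Mief1 start was not measured. The upstream regions within 10 kb, near the long non-coding RNA gene Gm46521, were weak. The first held 9.10, 4.71, 7.11 and 5.25 CPM in OPA1-deficient libraries, against 5.63, 9.04, 3.80 and 6.46 CPM in WT libraries, and the groups overlapped (0.07 ± 0.27, edgeR adjusted p = 0.987).

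**Figure D3:**
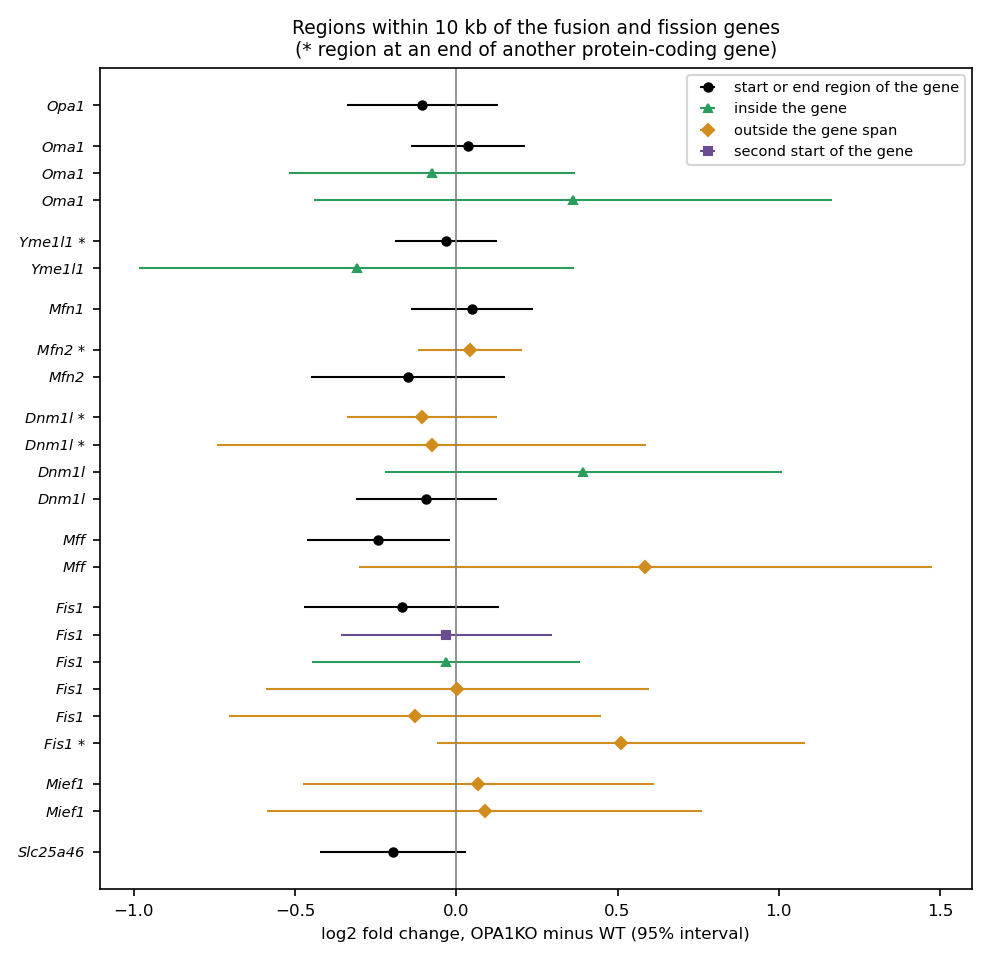
Log2 fold change (horizontal axis, OPA1-deficient minus WT) of all 24 regions with 95% intervals from edgeR's quasi-likelihood fit, grouped by gene from Opa1 at the top to Slc25a46 at the bottom. The interval of the Mff start region, from -0.46 to -0.02, is the only one that leaves out 0.

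Across the 9 start or end regions, 7 had a lower and 2 (Oma1 and Mfn1) a higher mean in OPA1-deficient libraries. The median log2 fold change was -0.11, against -0.04 over all 11190 tested regions of this kind, of which 62.0% were lower. The shares with an unadjusted p under 0.05 and with separated groups over those regions were 4.11% and 3.14%. The 9 intervals together ran from -0.47 to 0.24, or from 0.721 to 1.18 times the WT level, without correction for their number. The counts behind these values were 100 to 1037 per library. Their counting error was 3.43% to 8.36%, beside coefficients of variation between replicates of 3.70% to 21.3%. That error covers counting alone, and reads without molecular identifiers are not independent molecules.

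The other 15 regions comprised the second start of Fis1, 4 regions at ends of other protein-coding genes, and 10 regions away from any protein-coding end. The 10 were weak, with means of 2.49 to 9.35 CPM in OPA1-deficient and 1.66 to 9.83 CPM in WT libraries. Of these, 4 had a lower and 6 a higher mean in OPA1-deficient libraries, and their standard errors of 0.20 to 0.44 were larger than those at the starts. A difference at such regions was therefore less detectable at this depth. The largest log2 fold change among them, 0.59 ± 0.44, was 9450 bp outside Mff, where the counts averaged 13.1 per library.

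Compared per length, the order of the start or end regions was similar in the groups. In OPA1-deficient libraries it ran from Yme1l1 at 156.6 ± 8.58 CPM per kb through Oma1 at 130.9 ± 8.22 and Mfn1 at 109.2 ± 7.58 to Opa1 at 80.0 ± 7.61, Dnm1l at 73.6 ± 7.03, Mff at 68.4 ± 3.67, Fis1 at 52.8 ± 7.54, Slc25a46 at 43.4 ± 3.16 and Mfn2 at 35.7 ± 2.90 CPM per kb (mean ± SD, n = 4). In WT libraries Yme1l1 was at 160.0 ± 7.45, Oma1 at 127.7 ± 5.74, Mfn1 at 105.5 ± 3.90, Opa1 at 85.9 ± 7.86, Mff at 80.7 ± 5.54, Dnm1l at 78.6 ± 10.1, Fis1 at 59.7 ± 6.49, Slc25a46 at 49.7 ± 2.17 and Mfn2 at 39.7 ± 8.45 CPM per kb. The ranges of mean ± SD overlapped between neighbours for Opa1, Dnm1l and Mff in each group, and Mff and Dnm1l stood in the other order in the WT libraries. They also overlapped for Fis1 and Slc25a46 in OPA1-deficient libraries, and for Slc25a46 and Mfn2 in WT libraries. The first 3 places were separated by more than the spread in each group. Among 11238 start or end regions of all protein-coding genes, Yme1l1 was at percentile 90.4 of CPM per kb, Oma1 at 84.1, Opa1 at 68.0 and Mfn2 at 36.5. Widths of 412 to 871 bp enter these values, and the table does not say how region borders were set.

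**Figure D4:**
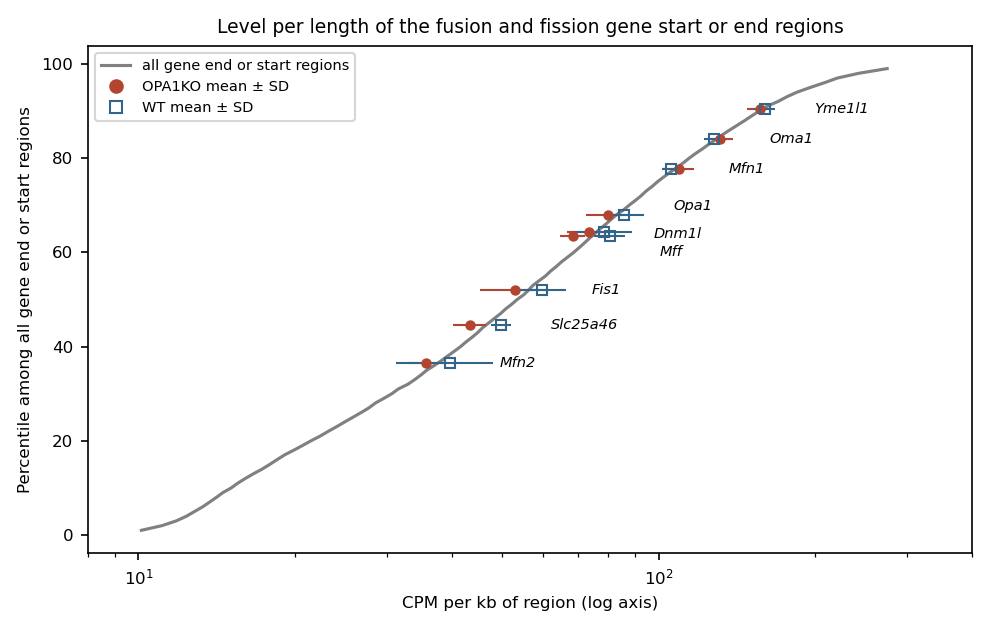
CPM per kb of region (horizontal log axis) of the 9 start or end regions, as mean ± SD of OPA1KO (filled circles) and WT (open squares) libraries (n = 4 each), against the percentile of the mean of all libraries among all 11238 start or end regions (grey curve). Yme1l1, at percentile 90.4, is the highest of the 9 and Mfn2, at 36.5, the lowest.

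Counts summed over all regions within 10 kb of a gene were tested as well. At Opa1, Mfn1 and Slc25a46 the sum is the single region described above. The start region held 97.8% of the sum at Yme1l1 and 95.4% at Mff. For these genes the sum thus largely repeats the test of the region and is not separate evidence. The sum was called changed for 0 of the 10 genes by edgeR's quasi-likelihood test over 15896 genes, where 0.0189% of genes were called, and DESeq2 and limma-voom also called 0. By edgeR 1 of the 10, Mff, had an unadjusted p under 0.05, against 5.29% of genes. The Mff sum was 40.1, 44.0, 41.8 and 42.3 CPM in OPA1-deficient libraries, against 48.5, 50.8, 43.0 and 51.1 CPM in WT libraries (-0.21 ± 0.09, edgeR adjusted p = 0.905). Sums were lower in OPA1-deficient libraries for 6 genes and higher for 4, from -0.21 at Mff to 0.08 at Mief1 on the log2 scale. Not all of these counts belong to the genes named. The Mfn2 sum (0.01) came mostly from the region at Miip and Fv1, and was -0.15 without regions at ends of other genes. The Mief1 sum came only from regions outside the gene. Those of Dnm1l and Fis1 took in regions at the ends of Yars2 and Cldn15. The median was -0.04, against -0.02 over all genes. The groups overlapped in all 10 sums, where they stood apart for 3.41% of genes. A region near several genes counts for each of them.

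Other genes of mitochondrial dynamics, from a list that holds further fission and fusion factors, OPA1 processing and cristae genes, and mitochondrial transport and quality control genes, were also measured. All 41 listed genes matched a gene model and 39 had a start or end region. By edgeR 0 of 39 were called higher and 0 lower, with 0 at an unadjusted p under 0.05, and DESeq2 and limma-voom called 0. Over all start or end regions edgeR called 0% and 4.11% had an unadjusted p under 0.05. The median log2 fold change was -0.05, with 27 of 39 lower, where 62.0% of all start or end regions were. The smallest p belonged to Atad3a, which encodes an inner membrane ATPase (chromosome 4, 155760926 to 155761393). It was at 61.2, 56.4, 59.7 and 56.6 CPM in OPA1-deficient libraries, against 42.3, 53.6, 55.7 and 51.3 CPM in WT libraries. The groups did not overlap, with WT replicate 1 farthest down, yet the log2 fold change of 0.21 ± 0.10 was not called (edgeR adjusted p = 0.792). It was 0.133 without WT replicate 1, and the sum over the regions within 10 kb of Atad3a differed by 0.04 ± 0.07 (edgeR adjusted p = 0.998). It was 1 of 39 regions with separated groups, against 3.14% of all start or end regions. Next came Gdap1, an outer membrane protein gene whose mutations cause a neuropathy in humans, at 3.14 ± 1.71 CPM in OPA1-deficient and 1.87 ± 0.516 CPM in WT libraries (0.76 ± 0.42, edgeR adjusted p = 0.821). It was 0.355 without OPA1-deficient replicate 1, which was at 5.41 CPM with the other OPA1-deficient libraries at 1.45 to 3.44 CPM, and 0.982 without OPA1-deficient replicate 2.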

How the data were processed

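The deposited values are raw counts per region in 1 table of 59906 regions and 8 libraries, whole numbers with no normalization. The submitters' processing notes name MACS2 (2.1.0.20150603), a peak caller, together with bedtools, SAMtools, Picard (1.65) and cutadapt (1.9), and give the builds as mm10 and GRCm38. Settings, a shift of cut sites for the enzyme and the way regions were merged are not given in the sources used here. Even numbers made up 54.1% to 59.9% of counts per library; whether a read pair counted once was not tested.

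Regions were filtered with filterByExpr, scaled by TMM and tested with edgeR 4.0.16 in R 4.3.3 (estimateDisp, robust glmQLFit, glmQLFTest) over all 8 libraries without covariates. Of the regions, 59247 were tested and 659 removed. Counts were also summed within 10 kb of each of 21887 RefSeq protein-coding genes and tested alike. Intervals are 95% intervals of the same fit. Gene spans, starts and start sequences came from RefSeq, GRCm38.p6; start sequences matched 9 of the 10 genes. The rule for a gene's region, within 1 kb of a span end, was widened after the data were seen to regions over a RefSeq start, which added Oma1. The procedure was tested on simulated data. Coordinates are printed as in the table.

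The genes and lists were chosen with earlier results of these data known. Named were all 10 genes, the 3 regions most like that of Opa1, and the 2 other dynamics genes with the smallest p. The alternatives were other scalings, DESeq2 1.42.0, limma-voom (limma 3.58.1), other filters and windows, a replicate block, and leaving out each library.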

Additional observations from a re-analysis of the deposited data

Results flagged for a closer look

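In 6 of the 66 groups of 4 libraries checked, 1 library stood far from the other 3 by Dixon's test, which flags about 1 in 20 groups by chance. Of the 6, 4 were OPA1-deficient replicate 4. It was the highest of its group at the Mfn1 start, at 77.4 CPM with the others at 67.3 to 68.3 CPM, and at the Slc25a46 region, at 41.5 CPM with the others at 35.9 to 36.1 CPM. It was the lowest at the region 7519 bp outside Fis1, at 3.44 CPM with the others at 5.41 to 5.80 CPM, and at the nearer region upstream of Mief1, at 1.64 CPM with the others at 4.16 to 4.55 CPM. At the region outside Mff, OPA1-deficient replicate 2 was at 1.63 CPM with the others at 2.68 to 2.85 CPM. At the second start of Fis1, WT replicate 3 was at 15.2 CPM with the other WT libraries at 21.5 to 22.5 CPM.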

How the results depend on the processing

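The 24 regions gave 0 calls under each of 15 alternatives (smallest adjusted p 0.341), and the 10 gene sums 0 under each of 17 (smallest adjusted p 0.564). Over all regions the number called was 12, and it was 43 with DESeq2's test, 4 with limma-voom and 1 with the replicate block. It ranged from 1 to 68 as each library was left out, and leaving out OPA1-deficient replicates 1, 2, 3 and 4 in turn gave 1, 4, 1 and 22, while for WT replicates 1, 2, 3 and 4 the counts were 8, 68, 1 and 1. Over all gene sums it was 3, and 10 with DESeq2's test, 2 with the replicate block, and 2 to 43 as each library was left out, where leaving out WT replicate 2 gave 43. Deviations of libraries with the same replicate number correlated at -0.13 to -0.01, and 0 of 8 libraries correlated best with their own number. Across groups, libraries with unlike numbers correlated more widely. The values ran from -0.25 (OPA1-deficient replicate 4 with WT replicate 2) to 0.22 (OPA1-deficient replicate 4 with WT replicate 1). What such libraries share was not tested. Pairing by number was thus not detected. Deviations from the means of groups of 4 libraries cannot exclude it.

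Values near 0 changed sign. The Yme1l1 region was at -0.062 to 0.0017 as each library was left out, and positive without WT replicate 2. The Mfn1 sum was -0.095 with a 50 kb window. The Mfn2 sum, 0.01, was -0.15 with a 1 kb window, -0.055 with a 50 kb window, -0.15 without regions at ends of other genes, and -0.026 to 0.062 as each library was left out. The Fis1 sum was -0.064 to 0.0029 as each library was left out. The Mief1 sum, 0.08, was -0.032 with a 50 kb window and -0.10 to 0.23 as each library was left out, and a 1 kb window gave no value for it. The cause of these changes was not tested. With 4 libraries a group, counts of 4 to 80 at regions away from gene ends limited what could be detected there.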
